A study of Mus musculus with 12 samples.

Results

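The genes described here are 30 factors of messenger RNA (mRNA) deadenylation, decapping and nonsense-mediated decay, listed by gene symbol. The list was made with earlier results of these data known. All 30 were found among the 20529 genes of the deposited table, and all 30 passed the filter on low counts, so each was tested among 20486 genes. They comprised 10 subunits of the CCR4-NOT deadenylase, 3 genes of the PAN2-PAN3 deadenylase and cytoplasmic poly(A)-binding protein, 10 factors of decapping and 5′ decay, and 7 factors of nonsense-mediated decay. Cnot1, Cnot7, Edc4 and Upf1 lie on chromosome 8 and were set apart from the outset, and the annotation placed Upf3a there too, so 5 members were kept apart from the other 25.

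The cells were mouse embryonic stem cells from the 129S6/SvEvTac strain with a reporter called GFP_5xT71BS. The growth protocol, the same for all 12 libraries, also lists a FLAG-Cas9 construct as stably integrated. Total RNA was sequenced in 4 groups of 3: Cas9 control, Cas9 Trim71-/-, Tnrc6a control and Tnrc6a Trim71-/-, where Cas9 or Tnrc6a is the overexpressed protein. Trim71 is a TRIM-NHL protein that binds and represses RNAs, and Tnrc6a, a GW182 protein, is the scaffold that Argonaute proteins use to bring deadenylases to silenced mRNAs. The series title asks whether distinct silencing routes meet on that scaffold. Replicates were wells of a culture, so p-values measure the spread between wells, and where a genotype is 1 line, the line and the genotype cannot be told apart. In bulk RNA, fewer cells of a kind and less RNA per cell cannot be told apart either.

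Most mRNAs are degraded in steps. The poly(A) tail is shortened by PAN2-PAN3 and CCR4-NOT, the cap is removed by DCP2 with its activators, and XRN1 digests the body of the message from its 5′ end. Nonsense-mediated decay feeds mRNAs with a premature stop codon into the same enzymes through UPF1, while microRNAs do so through GW182 proteins, which bind CCR4-NOT, PAN2-PAN3 and poly(A)-binding protein directly.

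The libraries held 20758151 to 31552915 counts each. Levels between genes are given in RPKM (reads per kilobase of gene length, scaled to library size), and fold changes are log2 ratios with their standard errors (SE) from the edgeR quasi-likelihood test, called at an adjusted p under 0.05 over all genes. In 9 libraries the line describing the input RNA disagrees with the title: it gives HA-AVI-Tnrc6a cells for the Cas9 Trim71-/- group, Ago2-/- cells for the Tnrc6a control group and Upf1-/- cells for the Tnrc6a Trim71-/- group. Groups therefore rest on the titles and on the overexpression tag. Tnrc6a lay at 10.3 to 10.5 RPKM in the Cas9 control group, at 10.5 to 12 in Cas9 Trim71-/-, at 251 to 270 in the Tnrc6a control group and at 273 to 291 in Tnrc6a Trim71-/-, as the titles have it. Trim71 lay at 31.1 to 34.0 RPKM in the Cas9 control and 28.3 to 31.2 in the Cas9 Trim71-/- libraries, which overlapped, and at 27.3 to 29.7 and 24.97 to 26.8 in the Tnrc6a libraries, which did not. It was called lower in Trim71-/- cells in both, by values of -0.15 (adjusted p = 0.00282) and -0.14 (adjusted p = 0.00758), so most of its RNA was still counted there. All 7 stem cell markers were present, with a summed level of 1123 to 2442 RPKM, against 3.47 to 7.36 for the 4 of 7 fibroblast markers in the table. The trophoblast markers (5 of 6 in the table) summed to 13.7 to 14.1 RPKM in Cas9 control, 11.1 to 11.3 in Cas9 Trim71-/-, 77.1 to 92.8 in Tnrc6a control and 38.0 to 38.8 in Tnrc6a Trim71-/- libraries, and the stem cell markers were lowest in the Tnrc6a control group (1123 to 1139). All 6 primitive endoderm markers were in the table and summed to 13.3 to 14.0, 2.26 to 2.72, 27.8 to 29.9 and 4.28 to 5.199 RPKM in the same order of groups, so they were lower in both Trim71-/- groups. The part of these marker differences in the results that follow was not tested.

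The members spanned a wide range of levels. In the Cas9 control group Pabpc1, which encodes the protein that coats poly(A) tails, led with 413 ± 10.1 RPKM (SD, n = 3). Cnot9, a CCR4-NOT subunit that docks GW182 proteins, came second with 55.0 ± 0.73, and Cnot11, a subunit of the amino-terminal module, followed with 43.1 ± 1.41. At the other end stood Cnot6l, a catalytic subunit, with 1.42 ± 0.12 RPKM, and Dcp1b, a decapping activator, with 1.12 ± 0.067. Ranked by mean, 14 of the 29 pairs of neighbours did not overlap in their 3 libraries. From Cnot11 through Ddx6, Smg5, Upf1 and Lsm14a each member overlapped the next, as did each from Dcp2 through Cnot2, Cnot8, Cnot1 and Cnot3 to Edc4. The same held for each from Patl1 through Cnot6, Eif4enif1, Cnot10 and Upf2 to Cnot7, and for Edc3 and Upf3a. The order inside those stretches and that pair is therefore not resolved. The plot of levels shows every member in every library.

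**Figure D1:**
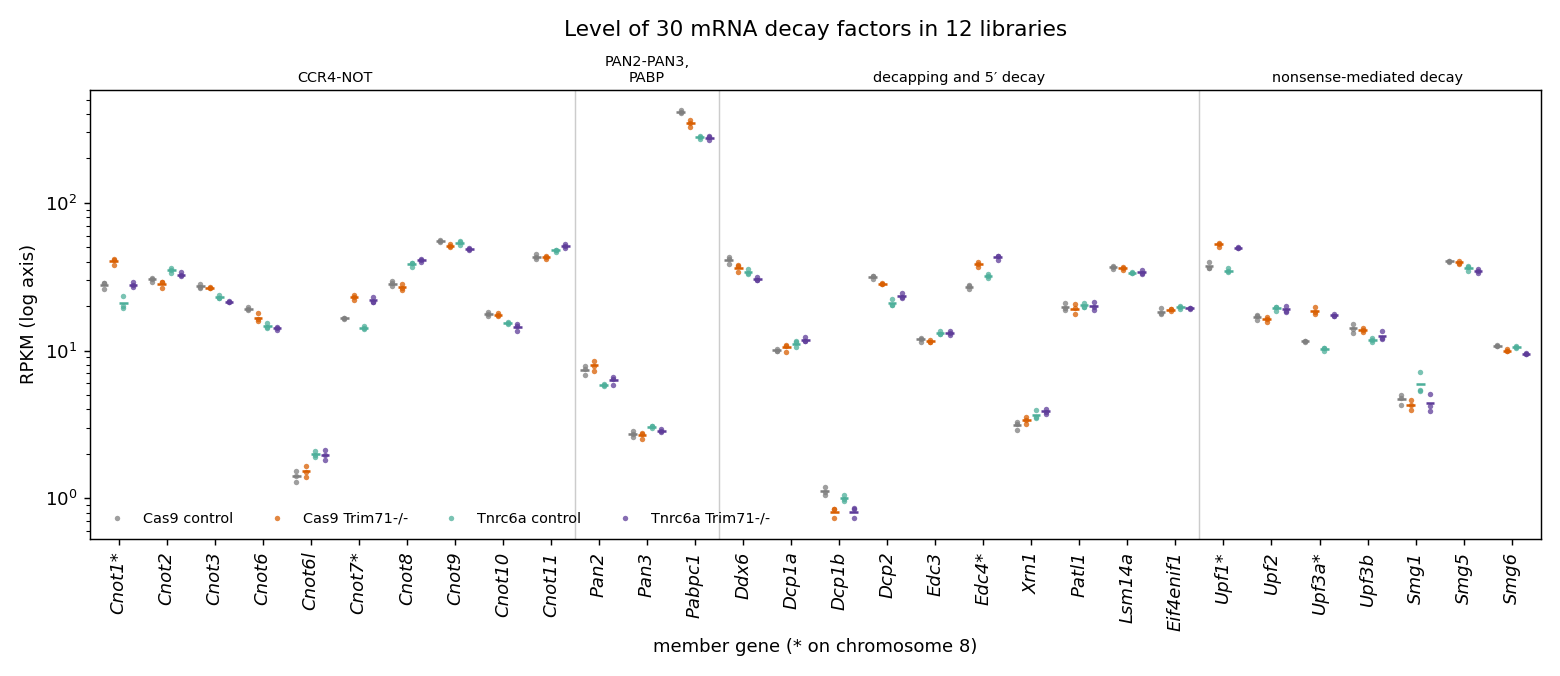
Level of each of the 30 members in RPKM (log axis) in 12 libraries; points are libraries, short lines are group means of 3, colours are the 4 groups, and asterisks mark members on chromosome 8. Pabpc1 stands alone at the top with 413 RPKM in the Cas9 control group, and Cnot6l and Dcp1b lie at the bottom with 1.42 and 1.12.

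The first comparison asked how the members differed between Trim71-/- and control cells. With Cas9, 12 of the 30 members passed the test, beside 36.1% of all genes tested. The 5 that were higher (17.1% of all genes) were the 5 on chromosome 8, and 7 others were lower (19.1% of all genes). Leaving chromosome 8 aside, 0 of 25 members were higher and 7 were lower, with a median log2 fold change of -0.03 against -0.01 over all genes. Of these 7, Cnot9 and Smg6 lost their call with scaling factors computed without chromosome 8 genes (adjusted p = 0.0728 and 0.0863). Shares and medians over all genes include chromosome 8. With Tnrc6a, 13 members passed, beside 39.1% of all genes: the same 5 on chromosome 8 plus 2 others were higher (20.0% of all genes) and 6 were lower (19.0% of all genes), and the median over the 25 was -0.02 against 0.00 over all genes. That split of 7 higher and 6 lower became 6 higher and 9 lower with relative log expression factors. Thus over all 30 members the share called lay near the background in both comparisons. Of the 25 off chromosome 8, 28% passed with Cas9 (36.1% of all genes), all of them lower. With Tnrc6a 32% of the 25 passed (39.1% of all genes), 2 higher and 6 lower.

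**Figure D2:**
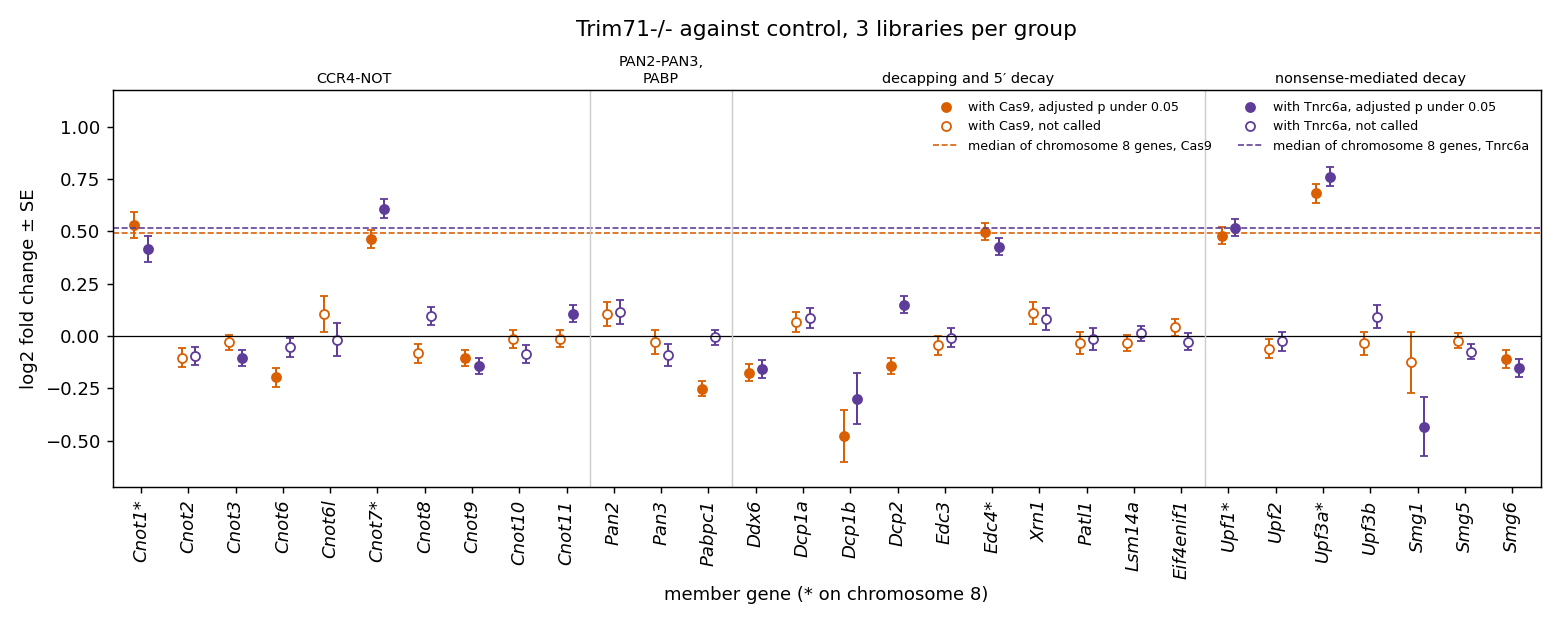
Log2 fold change (± SE) of each member in Trim71-/- against control cells, with Cas9 (orange) and with Tnrc6a (purple), 3 libraries per group; filled points passed an adjusted p of 0.05, and dashed lines give the medians of 664 chromosome 8 genes, 0.49 and 0.52. The 5 members on chromosome 8 lie at or above 0.41 in both comparisons, and no other member lies above 0.15.

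The chromosome 8 members were higher in Trim71-/- cells together with their chromosome. Over the 664 chromosome 8 genes with a mean of at least 5 CPM (counts scaled to library size), the median log2 fold change was 0.49 (quartiles 0.31 and 0.63) with Cas9 and 0.52 (quartiles 0.32 and 0.65) with Tnrc6a. The 5 members ranged from 0.46 to 0.68 and from 0.41 to 0.76. The cause of this chromosome-wide difference was not tested.

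Cnot1, the scaffold on which all CCR4-NOT subunits assemble, lies at 95719451 to 95807464 on chromosome 8 (GRCm38). It measured 26.3, 28.6 and 28.7 RPKM in the Cas9 control libraries and 41.8, 41.1 and 37.9 in Cas9 Trim71-/-. Every Trim71-/- library was above every control library, by 0.53 (SE 0.06, adjusted p = 6.18e-06). The 34 genes within 2 Mb of it had a median of 0.53. With Tnrc6a it measured 19.5, 20.0 and 23.3 in control and 27.8, 26.7 and 29.2 in Trim71-/- libraries, again without overlap, and differed by 0.41 (SE 0.06, adjusted p = 7.38e-05), beside a median of 0.56 for the same neighbours.

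Cnot7, a catalytic subunit of the CAF1 type, measured 16.5, 16.7 and 16.7 RPKM in Cas9 control and 23.7, 23.1 and 21.8 in Cas9 Trim71-/- libraries, a difference of 0.46 (SE 0.04, adjusted p = 5.64e-12). It differed by 0.61 (SE 0.04) with Tnrc6a, and in both comparisons the groups were apart. Edc4, the scaffold that joins DCP1 to DCP2, was 0.50 (SE 0.04) higher with Cas9 and 0.43 (SE 0.04) higher with Tnrc6a. Among chromosome 8 genes these 3 members stood between the 35.2 and 67.5 percentiles in both comparisons.

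The nonsense-mediated decay helicase Upf1 measured 39.99, 36.4 and 36.2 RPKM in the Cas9 control libraries and 53.8, 50.6 and 52.6 in Cas9 Trim71-/-. With Tnrc6a it measured 36.0, 33.8 and 34.4 in control and 50.2, 49.5 and 49.4 in Trim71-/- libraries. Its level thus was higher in both Trim71-/- groups, by 0.48 (SE 0.04, adjusted p = 2.54e-13) and 0.52 (SE 0.04, adjusted p = 1.82e-14), including the 3 libraries whose input line names Upf1-/- cells. An RNA level does not show whether the encoded protein is made. Upf3a, which with its paralog Upf3b links UPF2 to exon junctions, differed most of the 5, by 0.68 (SE 0.05) and 0.76 (SE 0.05). It stood at the 83.9 and 88.1 percentiles of chromosome 8, while the 22 genes within 2 Mb of it had medians of 0.57 and 0.58.

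Among the members elsewhere, Dcp1b gave the lowest value with Cas9. Dcp1b encodes 1 of the pair of DCP1 proteins that switch on DCP2. It measured 1.19, 1.06 and 1.11 RPKM in control and 0.846, 0.730 and 0.843 in Trim71-/- libraries, all below the controls, a difference of -0.48 (SE 0.12, adjusted p = 0.00182). With Tnrc6a the difference was -0.30 (SE 0.12, adjusted p = 0.0456). That call was lost without Tnrc6a control replicate 1 (adjusted p = 0.11) or 3 (0.0818) and without Tnrc6a Trim71-/- replicate 1 (0.0526) or 3 (0.183), and with scaling factors computed without chromosome 8 genes (0.0567). Its level of about 1 RPKM limits its precision.

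Ddx6, the RNA helicase that ties CCR4-NOT to decapping, was lower in Trim71-/- cells in both backgrounds. It measured 38.5, 41.6 and 43.1 RPKM in Cas9 control and 37.8, 37.1 and 34.3 in Cas9 Trim71-/- libraries, differing by -0.17 (SE 0.04, adjusted p = 0.000661). With Tnrc6a it measured 33.4, 33.2 and 35.5 against 30.1, 30.2 and 31.3, differing by -0.16 (SE 0.04, adjusted p = 0.00191). Its groups did not overlap in either comparison. Cnot6, a catalytic subunit of the CCR4 type, was lower with Cas9 (-0.20, SE 0.05, adjusted p = 0.000544) and gave -0.05 with Tnrc6a (SE 0.05, adjusted p = 0.373). Cnot9 was lower by values of -0.10 (adjusted p = 0.0271) and -0.14 (adjusted p = 0.00183). Smg6, the endonuclease of nonsense-mediated decay, gave -0.11 (adjusted p = 0.0374) and -0.15 (adjusted p = 0.00321). Both calls with Cas9 were weak: without Cas9 control replicate 1 the adjusted p became 0.0636 for Cnot9 and 0.0737 for Smg6, and without Cas9 control replicate 3 it became 0.0946 and 0.106. Leaving out Cas9 Trim71-/- replicate 1 or 3 ended both as well, and leaving out Cas9 control replicate 2 ended that of Smg6 (0.0609). Scaling factors computed without chromosome 8 genes also ended both (0.0728 for Cnot9 and 0.0863 for Smg6).

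Smg1, the kinase that phosphorylates UPF1, showed how 1 library can carry a value. It measured 5.37, 5.36 and 7.11 RPKM in Tnrc6a control and 4.21, 3.91 and 5.12 in Tnrc6a Trim71-/- libraries, a difference of -0.43 (SE 0.14, adjusted p = 0.041). Without Tnrc6a control replicate 3 it was -0.28 (adjusted p = 0.11), and without Tnrc6a Trim71-/- replicate 1 or 2 the adjusted p was 0.115 or 0.104. Smg1 has 23984 bases of exons, the longest of the members, and in Tnrc6a control replicate 3 the 250 genes of at least 15000 bases lay by a median of 0.09 (log2) above their group mean, against -0.06 to 0.04 in the other libraries. Cnot1, with 17169 bases, was also highest of its group in that library. What library length profile contributed to the values of Smg1 was not tested.

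Cnot11 (0.11, adjusted p = 0.0272) and Cnot3 (-0.10, adjusted p = 0.025), 2 structural subunits of CCR4-NOT, passed the test with Tnrc6a. Both calls depended on single libraries. Cnot11 lost its call without replicate 1 (adjusted p = 0.123) or 2 (0.288) of Tnrc6a control and without replicate 1 (0.0704) or 2 (0.321) of Tnrc6a Trim71-/-. It also lost it with relative log expression factors (0.111) and with DESeq2 (0.121). Cnot3 lost it without Tnrc6a control replicate 3 (0.107), without Tnrc6a Trim71-/- replicate 3 (0.0843), and with factors computed without chromosome 8 (0.053).

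Cnot10, the partner of Cnot11, is the member nearest to Trim71: both genes lie on the minus strand of chromosome 9, with 21508 bases between the 3′ end of Cnot10 and the start of Trim71. It measured 18.3, 17.1 and 17.6 RPKM in Cas9 control and 17.4, 17.9 and 17.3 in Cas9 Trim71-/- libraries. These groups overlapped, and the difference was -0.02 (SE 0.04, adjusted p = 0.816). With Tnrc6a it was -0.09 (SE 0.04, adjusted p = 0.109). Ccr4, the chemokine receptor gene on the other side of Trim71, not to be confused with the CCR4 deadenylases, differed by 5.86 (SE 0.14) and 4.77 (SE 0.13).

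The second comparison asked how the members differed between cells with Tnrc6a and cells with Cas9 alone. Here 25 of 30 members passed the test in control cells, beside 63.5% of all genes, 11 of them higher (30.4% of all genes) and 14 lower (33.1%). In Trim71-/- cells 20 passed, beside 62.9% of all genes, 9 higher (32.0%) and 11 lower (30.9%). Median log2 fold changes over the members were -0.08 and -0.07, against -0.02 and 0.02 over all genes. Most differences were small: with a minimum of 1.2-fold added, 8 members remained in each comparison, 2 higher and 6 lower, beside 52.6% of all genes in control cells (26.0% higher, 26.5% lower) and 51.1% in Trim71-/- cells (27.0% higher, 24.2% lower). These comparisons share libraries with those of the genotypes, so their values are given side by side and no overlap between the lists is counted.

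**Figure D3:**
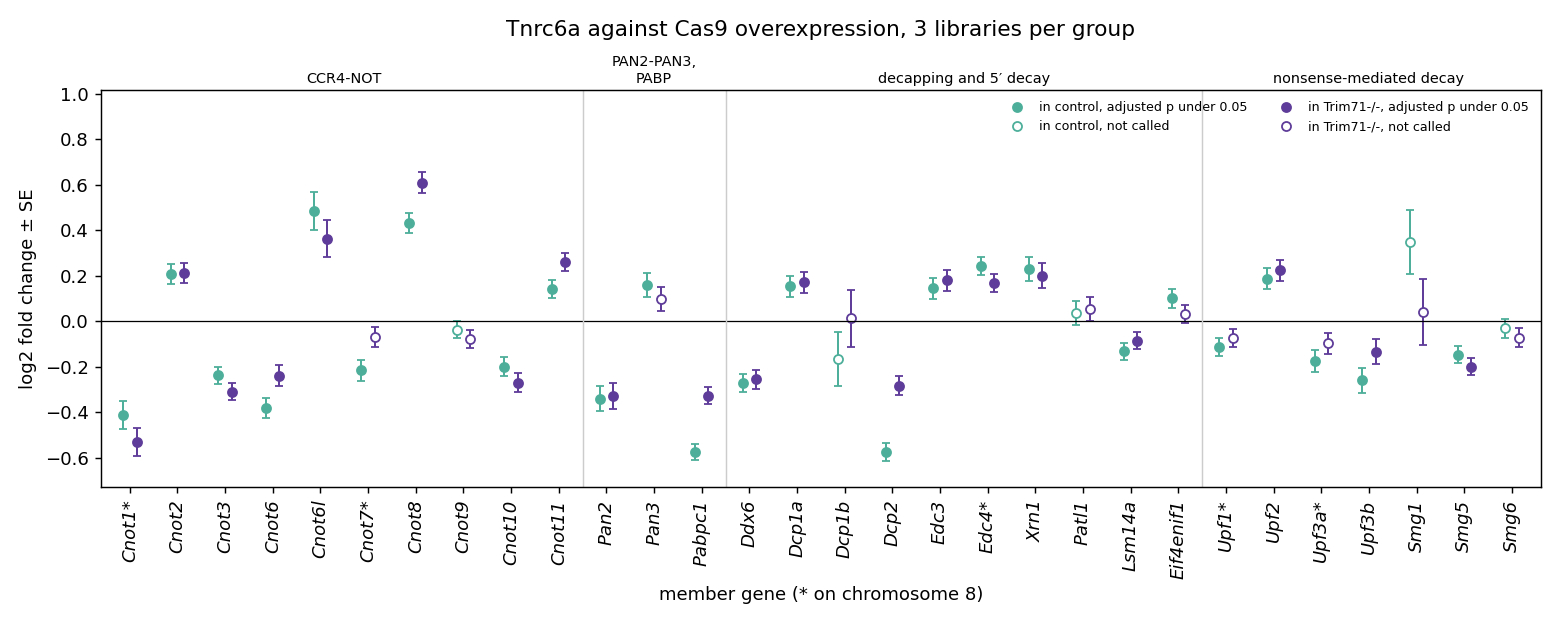
Log2 fold change (± SE) of each member in cells with Tnrc6a against cells with Cas9, in control (green) and Trim71-/- cells (purple), 3 libraries per group; filled points passed an adjusted p of 0.05 and asterisks mark chromosome 8. Values run from -0.57 (Pabpc1 and Dcp2 in control cells) to 0.61 (Cnot8 in Trim71-/- cells).

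The catalytic subunits of CCR4-NOT differed in opposite directions. CCR4-NOT carries 1 nuclease of the CCR4 type, encoded by Cnot6 or Cnot6l, and 1 of the CAF1 type, encoded by Cnot7 or Cnot8. Cnot8 measured 27.2, 29.4 and 28.6 RPKM in Cas9 control and 38.9, 38.9 and 37.0 in Tnrc6a control libraries. The groups were far apart, and the difference was 0.43 (SE 0.04, adjusted p = 2.61e-11). In Trim71-/- cells it measured 26.6, 25.9 and 28 with Cas9 and 41.0, 41.8 and 39.9 with Tnrc6a, a difference of 0.61 (SE 0.04, adjusted p = 1.07e-15). Its paralog Cnot7 was lower by -0.22 in control cells (SE 0.04, adjusted p = 4.02e-05) and gave -0.07 in Trim71-/- cells (SE 0.04, adjusted p = 0.15).

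Cnot6 was the more abundant CCR4-type nuclease and was lower with Tnrc6a. It measured 19.1, 18.7 and 19.6 RPKM in Cas9 control and 14.2, 14.4 and 15.4 in Tnrc6a control libraries, a difference of -0.38 (SE 0.05, adjusted p = 9e-10). In Trim71-/- cells the difference was -0.24 (SE 0.05, adjusted p = 1.51e-05). Cnot6l, at 1.30, 1.43 and 1.54 RPKM in Cas9 control and 1.90, 1.97 and 2.10 in Tnrc6a control libraries, was higher by 0.49 (SE 0.08, adjusted p = 2.27e-06). It was higher by 0.36 in Trim71-/- cells (SE 0.08, adjusted p = 0.000186). Every Tnrc6a library was below every Cas9 library for Cnot6 and above it for Cnot6l, in both genotypes.

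Ratios within pairs of paralogs put these differences on 1 scale. Cnot6 over Cnot6l was 13.5 ± 1.08 (RPKM ratio, SD, n = 3) in the Cas9 control group, 11.0 ± 0.36 in Cas9 Trim71-/-, 7.38 ± 0.09 in Tnrc6a control and 7.21 ± 0.52 in Tnrc6a Trim71-/-. The Tnrc6a libraries thus held a lower share of Cnot6, and no Tnrc6a library reached any Cas9 library. Cnot7 over Cnot8 was 0.586 ± 0.019 in Cas9 control, 0.855 ± 0.065 in Cas9 Trim71-/-, 0.374 ± 0.019 in Tnrc6a control and 0.534 ± 0.027 in Tnrc6a Trim71-/-. Cnot8 was the more abundant member of its pair per length in every library. In raw counts, which ignore length, the mean ratio of Cnot7 over Cnot8 was 1.29, 1.89, 0.827 and 1.18 in the same order of groups. The lengths used were 5821 bases for Cnot7, which lies on chromosome 8, and 2636 for Cnot8, on chromosome 11. The part of length and of chromosome 8 in this ratio and in the sum below was not tested. The sum of Cnot7 and Cnot8 was 45.0 ± 1.21 RPKM in Cas9 control, 49.7 ± 0.67 in Cas9 Trim71-/-, 52.6 ± 0.76 in Tnrc6a control and 62.7 ± 1.52 in Tnrc6a Trim71-/-, where every library (61.1 to 64.1) was above those of the other groups. That of Cnot6 and Cnot6l was 20.5 ± 0.52, 18.2 ± 1.24, 16.7 ± 0.76 and 16.1 ± 0.46 in the same order, and the libraries of the Tnrc6a groups overlapped (16.1 to 17.5 and 15.7 to 16.6).

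The other pairs differed with the genotype. Dcp1a over Dcp1b was 8.97 ± 0.60 in Cas9 control and 13.1 ± 1.73 in Cas9 Trim71-/-, 11.2 ± 1.03 in Tnrc6a control and 14.7 ± 1.76 in Tnrc6a Trim71-/-. Upf3a over Upf3b was 0.819 ± 0.058 in Cas9 control and 1.34 ± 0.082 in Cas9 Trim71-/-, 0.866 ± 0.031 in Tnrc6a control and 1.38 ± 0.067 in Tnrc6a Trim71-/-. Per length, Upf3b was thus the more abundant of that pair in all 6 control libraries and Upf3a in all 6 Trim71-/- libraries, while in raw counts, which ignore length, Upf3a exceeded Upf3b in the control groups too (mean ratios of 1.201 with Cas9 and 1.27 with Tnrc6a), with Upf3a lying on chromosome 8 and Upf3b on the X chromosome.

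**Figure D4:**
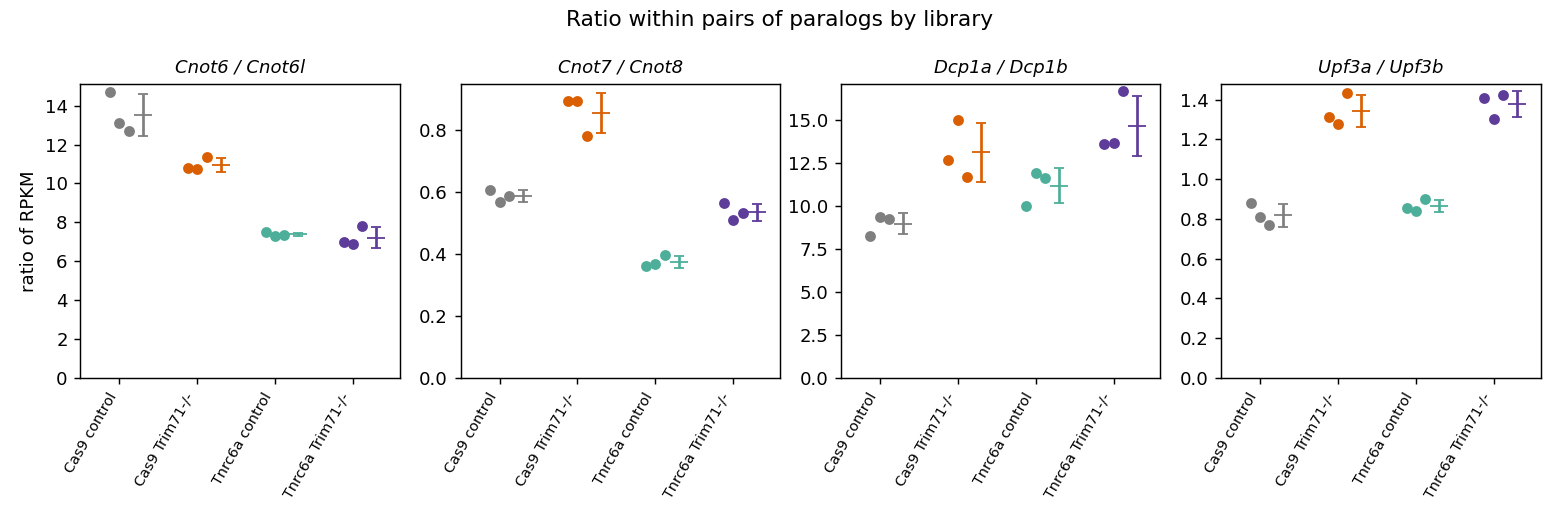
Ratio of RPKM within 4 pairs of paralogs in each library (points) with the group mean and SD of 3 libraries beside them. Cnot6 over Cnot6l is lower in both Tnrc6a groups (7.38 and 7.21 against 13.5 and 11.0), and Upf3a over Upf3b passes 1 in both Trim71-/- groups.

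The remaining CCR4-NOT subunits also fell on both sides. The scaffold Cnot1 was lower with Tnrc6a by -0.41 in control cells (SE 0.06, adjusted p = 3.46e-05) and -0.53 in Trim71-/- cells (SE 0.06, adjusted p = 2.35e-06), from the RPKM given above, without overlap. Cnot3, which with Cnot2 forms the NOT module, differed by -0.24 and -0.31 (SE 0.04 each, adjusted p = 5.65e-07 and 1.77e-09). Cnot2 itself was higher by 0.21 in both (SE 0.04, adjusted p = 6.77e-05 and 5e-05). In the amino-terminal module, Cnot10 was lower by values of -0.20 and -0.27, while its partner Cnot11 was higher by 0.14 and 0.26, all 4 with an adjusted p under 0.05. Cnot9 did not pass in either genotype (-0.04 and -0.08, adjusted p = 0.38 and 0.0666). In control cells 4 of the 10 subunits were higher (30.4% of all genes) and 5 lower (33.1%), and in Trim71-/- cells 4 were higher (32.0%) and 4 lower (30.9%).

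The PAN2-PAN3 deadenylase starts the shortening of long tails. Its nuclease Pan2 measured 7.47, 6.78 and 7.82 RPKM in Cas9 control and 5.77, 5.91 and 5.80 in Tnrc6a control libraries, a difference of -0.34 (SE 0.06, adjusted p = 1.39e-06). In Trim71-/- cells the difference was -0.33 (SE 0.06, adjusted p = 2.16e-06), again with the groups apart. Pan3, the adaptor that binds GW182 proteins, gave 0.16 in control cells (SE 0.05, adjusted p = 0.0101) and 0.10 in Trim71-/- cells (SE 0.05, adjusted p = 0.115). The first of these was lost without Cas9 control replicate 2 (adjusted p = 0.0611).

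Pabpc1, on chromosome 15, was among the members with the lowest values with Tnrc6a and was also lower in Trim71-/- cells with Cas9. It measured 409, 424 and 405 RPKM in Cas9 control, 364, 349 and 326 in Cas9 Trim71-/-, 272, 283 and 277 in Tnrc6a control and 283, 279 and 267 in Tnrc6a Trim71-/- libraries. The Cas9 control libraries were highest, the Cas9 Trim71-/- libraries came next, and the Tnrc6a groups were lowest and overlapped each other. Tnrc6a differed from Cas9 by -0.57 in control cells (SE 0.04, adjusted p = 5.26e-18) and by -0.33 in Trim71-/- cells (SE 0.04, adjusted p = 1.17e-10). The genotypes differed by -0.25 with Cas9 (SE 0.04, adjusted p = 1.65e-07) and by -0.01 with Tnrc6a (SE 0.04, adjusted p = 0.92). The test of the difference between these genotype effects gave 0.25 (SE 0.05, adjusted p = 0.000908), and only 2 of 30 members passed that test, beside 6.93% of all genes. Both gave positive values (4.68% of all genes), and no member gave a negative one that passed (2.25%).

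Dcp2, the decapping enzyme, on chromosome 18, was the other. It measured 30.3, 31.9 and 31.7 RPKM in Cas9 control, 28.4, 28.2 and 28.5 in Cas9 Trim71-/-, 20.4, 20.3 and 22.4 in Tnrc6a control and 22.5, 22.9 and 24.5 in Tnrc6a Trim71-/- libraries. No 2 groups overlapped. With Tnrc6a it was lower by -0.57 in control (SE 0.04, adjusted p = 2.58e-16) and -0.28 in Trim71-/- cells (SE 0.04, adjusted p = 6.59e-08). Trim71-/- cells were lower with Cas9 (-0.14, SE 0.04, adjusted p = 0.00413) and higher with Tnrc6a (0.15, SE 0.04, adjusted p = 0.00284), and the difference between these was 0.29 (SE 0.06, adjusted p = 0.000502). With a minimum of 1.2-fold added, Dcp2 was the 1 member left in that test, beside 5.47% of all genes (3.68% higher, 1.79% lower). The rise with Tnrc6a was lost without Tnrc6a control replicate 1 (adjusted p = 0.0789) or 2 (adjusted p = 0.0968).

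**Figure D5:**
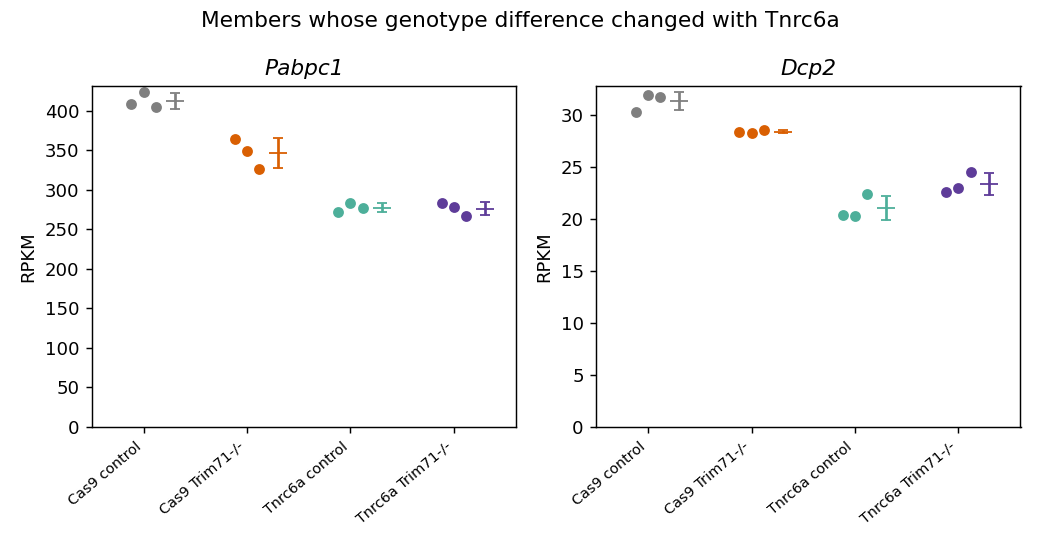
RPKM of Pabpc1 and Dcp2 in each library (points) by group, with the mean and SD of 3 libraries beside them; axes start at 0. The genotype groups are apart with Cas9 for both genes, overlap with Tnrc6a for Pabpc1, and are in reverse order with Tnrc6a for Dcp2.

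Activators and partners of decapping differed by less. Ddx6 was lower by values of -0.27 and -0.25 (SE 0.04 each, adjusted p = 2.03e-07 and 8.66e-07). Edc4 was higher by 0.24 and 0.17, Edc3, an enhancer of decapping, by 0.14 and 0.18, and Dcp1a by 0.15 and 0.17, all with an adjusted p under 0.05. Exons of Edc3 share 22.1% of their bases with Clk3 on the opposite strand, and no source used here says whether counting used strand, so its counts may hold reads of that gene. Lsm14a, a translational repressor that binds Ddx6, gave -0.13 (adjusted p = 0.00198) in control cells and -0.09 (adjusted p = 0.0412) in Trim71-/- cells. The latter was lost in 4 of the 6 fits that leave out a library of its groups (without Cas9 Trim71-/- replicate 1 or 2, or Tnrc6a Trim71-/- replicate 1 or 3), and also with relative log expression factors (adjusted p = 0.0907), upper-quartile factors (0.192), DESeq2 (0.079) and the replicate block (0.0548).

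Xrn1, the 5′ exonuclease that completes the pathway, measured 2.90, 3.17 and 3.29 RPKM in Cas9 control and 3.52, 3.51 and 3.93 in Tnrc6a control libraries. Within each genotype all Tnrc6a libraries were above the Cas9 libraries, with a difference of 0.23 in control (SE 0.05, adjusted p = 0.000257) and 0.20 in Trim71-/- cells (SE 0.05, adjusted p = 0.00104). Eif4enif1, which binds the cap-binding protein and carries it to P-bodies, gave 0.10 (adjusted p = 0.0306) and 0.03, and its first value lost its call without Cas9 control replicate 1 (adjusted p = 0.148) or 2 (0.11) or without Tnrc6a control replicate 3 (0.0701). Patl1, the scaffold between CCR4-NOT and decapping, did not pass in any comparison: its values lay between -0.03 and 0.05. Dcp1b did not pass in this comparison either (-0.17 and 0.01).

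In nonsense-mediated decay the Tnrc6a values were small. Upf2, the bridge between UPF1 and UPF3, was higher by 0.19 and 0.22 (SE 0.05 each, adjusted p = 0.000406 and 4.43e-05). Smg5, the adaptor that recruits decay enzymes to phosphorylated UPF1, was lower by values of -0.15 (adjusted p = 0.000676) and -0.20 (adjusted p = 1.17e-05). Its first value lost its call without Tnrc6a control replicate 2 (adjusted p = 0.0619). Upf3b gave -0.26 (adjusted p = 7.77e-05) and -0.13 (adjusted p = 0.0328), and Upf3a -0.18 (adjusted p = 0.00131) and -0.10 (adjusted p = 0.0545). In Trim71-/- cells the call of Upf3b was lost without Cas9 Trim71-/- replicate 2 (adjusted p = 0.126) or Tnrc6a Trim71-/- replicate 1 (0.138) or 3 (0.157), and with relative log expression factors (0.0588), upper-quartile factors (0.101) or DESeq2 (0.0874).

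Upf1 gave -0.11 in control cells (SE 0.04, adjusted p = 0.0147) and -0.07 in Trim71-/- cells (SE 0.04, adjusted p = 0.102). The call in control cells was lost with relative log expression factors (adjusted p = 0.12), upper-quartile factors (0.0702) and DESeq2 (0.145), and without Cas9 control replicate 1 (0.214) or Tnrc6a control replicate 2 (0.204). Smg1 gave 0.35 in control cells (SE 0.14, adjusted p = 0.0606) and 0.04 in Trim71-/- cells (SE 0.14, adjusted p = 0.82). It became a call with the replicate number as a block (0.34, adjusted p = 0.000139), with DESeq2 (0.39, adjusted p = 0.0144), with relative log expression (adjusted p = 0.0407) or upper-quartile factors (0.0441), with a filter of 1 CPM (0.0389), and without Tnrc6a control replicate 1 (0.44, adjusted p = 0.0414) or 2 (0.44, adjusted p = 0.0398). Smg6 did not pass (-0.03 and -0.07).

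Gene length moved with this comparison and is given beside it. Genes of at least 5 CPM were split by length into 5 classes of equal size. In the shortest class (57 to 1766 bases) the median log2 fold change with Tnrc6a was -0.39 in control and -0.39 in Trim71-/- cells, against 0.02 and 0.05 in the longest class. None of the 30 members lay in the shortest class, 1 lay in the next, and 23 lay in the 2 longest, where the medians over all genes were between 0.01 and 0.05. The genotype comparisons showed no such slope, with medians between -0.01 and 0.02 over the 5 length classes.

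Sequences bear on the members because silencing by microRNAs runs through Tnrc6 proteins. Shown are mature microRNAs of 3 families, the first 2 abundant in stem cells and the last a family of differentiated cells, read from RefSeq (GRCm38.p6), with the seed (bases 2 to 8) in capitals.
miR-294-3p: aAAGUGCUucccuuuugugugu
miR-17-5p: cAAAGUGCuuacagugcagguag
let-7a-5p: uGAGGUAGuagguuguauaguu
A 7-base match to the miR-294 seed (AGCACTT on the sense strand) was counted in the longest annotated 3′ UTR of 29 members. Cnot8 was left out, since the annotation marks the 3′ ends of its coding transcripts as incomplete. It stood in 5 of 29 members (17.2%), beside 16.7% of 14873 tested genes with a 3′ UTR. The match to miR-17 (GCACTTT), which overlaps the first by 6 bases, stood in 7 of 29 (24.1%, beside 13.7%), and that to let-7a (CTACCTC) in 1 of 29, Edc3 (3.45%, beside 10.3%). The 3′ UTRs of the 7 with a miR-17 match had 1447 to 7240 bases, against a median of 1116 over the tested genes. The part of UTR length in these shares was not tested.

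The miR-294 matches fell in members that differed in opposite directions with Tnrc6a. The first match of each is shown from 5′ to 3′ with the 7 matching bases in capitals and its place in GRCm38, and none is shown for Dcp2.
Cnot6 (chr11:49673036-49673063, minus strand): ggagaggggaggAGCACTTactcatctc
Cnot6l (chr5:96076650-96076677, minus strand): gcacattatcaaAGCACTTaaatttgct
Pan3 (chr5:147547041-147547068, plus strand): ggacagactccaAGCACTTgcaactgat
Dcp1b (chr6:119221486-119221513, plus strand): ggttcaatccctAGCACTTaaaaaaaga
Cnot6 held 2 such matches and was lower with Tnrc6a (-0.38 in control cells), while Cnot6l held 1 and was higher (0.49). Dcp2 held 5 in a 3′ UTR of 7240 bases, a length above 98.9% of those genes, and 9 of the 14873 genes held at least 5. The 5 members with a match had a median of -0.17 with Tnrc6a in control cells and 0.01 in Trim71-/- cells, against -0.08 and -0.07 for the 24 without. Both medians of the 5 are the values of Dcp1b, a gene at about 1 RPKM that was not called in either comparison. The 5 values ran from -0.57 to 0.49 in control cells and from -0.28 to 0.36 in Trim71-/- cells. A match is a description and does not show that a microRNA acts there.

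Promoters were the other sequence the members could be compared on, since the rule did not use it. RefSeq promoters (250 bases before to 50 after the start) were found for 25 of the 30 members, 34 in all, with a median of 29.5 CpG dinucleotides each against 7.0 over 32851 promoters of all genes, whether expressed in stem cells or not. The GC box (GGGCGG on either strand) stood in 24 of those 34 promoters, beside 35.7% of all promoters, and the CCAAT box (CCAAT on either strand) in 9, beside 37.4%. The promoters of Cnot6 and Cnot8, deadenylases that differed in opposite directions with Tnrc6a, are shown on their coding strands, with GC and CCAAT boxes in capitals.
Cnot6 (chr11:49712673-49712972, minus strand): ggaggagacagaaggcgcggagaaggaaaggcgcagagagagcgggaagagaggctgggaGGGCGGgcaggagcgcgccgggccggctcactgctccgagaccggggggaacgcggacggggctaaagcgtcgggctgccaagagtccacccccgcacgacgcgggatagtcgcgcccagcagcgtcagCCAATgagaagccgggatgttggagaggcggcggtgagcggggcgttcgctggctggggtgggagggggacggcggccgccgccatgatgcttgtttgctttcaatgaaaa
Cnot8 (chr11:58103979-58104278, plus strand): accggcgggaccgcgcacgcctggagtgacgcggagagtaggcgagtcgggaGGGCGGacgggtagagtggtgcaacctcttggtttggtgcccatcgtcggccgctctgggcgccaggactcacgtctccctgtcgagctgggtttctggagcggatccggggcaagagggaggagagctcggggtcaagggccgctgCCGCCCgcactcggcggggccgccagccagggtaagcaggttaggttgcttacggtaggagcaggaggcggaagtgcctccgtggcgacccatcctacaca
RefSeq gives 1 promoter for Cnot6 and 4 for Cnot8, of which the one with the most box matches is shown. Of the 4, 2 hold a GC box and 2 hold neither box, and the Cnot6 promoter also holds a CCAAT box, which none of the 4 does.

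Other genes of the same pathways gave the members their setting, and their counts stand beside the shares of all genes tested. With Tnrc6a these shares were 30.4% higher and 33.1% lower in control cells (median -0.02) and 32.0% and 30.9% in Trim71-/- cells (median 0.02). For the genotype they were 17.1% higher and 19.1% lower with Cas9 (median -0.01) and 20.0% and 19.0% with Tnrc6a (median 0.00). Of 19 tested genes that guide or regulate deadenylation, 12 were higher and 4 lower with Tnrc6a in control cells, and 14 were higher and 4 lower in Trim71-/- cells, with medians of 0.23 and 0.29. Btg2, an antiproliferative protein that binds the CAF1-type nucleases, measured 24.5, 23.3 and 25.5 RPKM in Cas9 control and 69.1, 69.3 and 70.2 in Tnrc6a control libraries. It differed by 1.51 (SE 0.04, adjusted p = 2.62e-30) and, in Trim71-/- cells, by 1.84 (SE 0.04, adjusted p = 1.19e-33), more than any member. Tob2, of the same family, was higher by 1.16 in control cells (SE 0.06, adjusted p = 2.92e-21). Pabpc4, a paralog of Pabpc1, was lower by values of -0.91 and -0.87 (SE 0.04 each, adjusted p = 3.93e-25 and 3.76e-24). With the genotype, 4 of the 19 were higher and 8 lower with Cas9, and 7 were higher and 4 lower with Tnrc6a.

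The list of other decapping genes consisted mainly of the LSM ring that binds deadenylated tails. With Tnrc6a 1 of its 10 genes was higher and 9 were lower in control cells, and 0 were higher and 9 lower in Trim71-/- cells, with medians of -0.47 and -0.48. Lsm6 (4076 bases) differed by -0.97 and -1.005, and Lsm4 (1038 bases) by -0.82 and -0.90, all with an adjusted p under 0.05. With the genotype the 3 that were higher in each background, Lsm1, Lsm4 and Lsm6, all lie on chromosome 8. The part of gene length and of chromosome 8 in these counts was not tested.

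Of 18 genes of 3′ decay (the exosome, its cofactors and terminal uridylyltransferases), 2 were higher and 11 lower with Tnrc6a in control cells, and 3 were higher and 12 lower in Trim71-/- cells, with medians of -0.31 and -0.25. The uridylyltransferases Tut7 (0.53 and 0.58) and Tut4 (0.51 and 0.45) were the highest, and the exosome ring subunit Exosc5 was the lowest (-0.70 and -0.88). With the genotype 4 were higher and 4 lower with Cas9, and 4 were higher and 2 lower with Tnrc6a. The other 13 genes of nonsense-mediated decay gave 2 higher and 5 lower, and 4 higher and 5 lower, with Tnrc6a, with medians of -0.07 and -0.10. Gspt1, the release factor eRF3, was lower by values of -0.41 and -0.40 (SE 0.04 each), while Casc3, a core protein of the exon junction complex, was higher by 0.41 and 0.21 (SE 0.04 each). With the genotype 1 was higher and 1 lower with Cas9, and 1 was higher and 3 lower with Tnrc6a.

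Transcripts reported elsewhere as sensitive to nonsense-mediated decay were called in both directions, with more higher than lower in Trim71-/- cells. Of 12, 6 were higher (17.1% of all genes) and 2 lower (19.1%) in Trim71-/- cells with Cas9. Among the 6, the call of Ddit3 was lost without Cas9 control replicate 2 (adjusted p = 0.132) or 3 (0.12). It was also lost without Cas9 Trim71-/- replicate 3 (0.1). With Tnrc6a 5 of the 12 were higher (20.0%) and 3 lower (19.0%). The medians of the 12 were 0.16 and 0.05, against -0.01 and 0.00 over all genes. Snhg8, a host gene of a small nucleolar RNA, was higher by 0.62 (SE 0.07, adjusted p = 4.73e-10) and 0.47 (SE 0.07, adjusted p = 2.79e-07), while Atf4, a stress-response transcription factor, was lower by values of -0.55 and -0.52 (SE 0.04 each). With Tnrc6a 4 were higher and 7 lower in both genotypes, with medians of -0.19 and -0.25. Ddit3, a stress-response gene, was highest by 1.73 (SE 0.09) and 1.42 (SE 0.08), and Snhg5, another host gene, was lower by values of -0.70 and -0.73. Upf1 and the other members of its pathway stood within 0.35 of 0 in the comparisons of Tnrc6a with Cas9.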

How the data were processed

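The authors deposited raw read counts per gene and library and RPKM values per kilobase of a deposited gene length, per the file headers. The submitters' processing notes name bcl2fastq 2.20, STAR 2.7.3a and the mouse builds GRCm38 and mm10, while no source used here gives the counting settings. In each library the deposited RPKM equalled the counts divided by length and by 1 constant of 0.935 to 1.08 of the library total. Counts were fitted in R 4.3.3 with edgeR 4.0.16 (filterByExpr, TMM factors, robust quasi-likelihood, 12 libraries, 1 mean per group, two-sided, Benjamini-Hochberg over 20486 genes), which was tested on simulated data. Alternatives used other scaling factors and filters, limma 3.58.1 (voom), DESeq2 1.42.0, a replicate block, the 2 groups compared only, a 1.2-fold minimum and each library left out in turn. Replicate libraries differed beyond sampling noise (chi-square per degree of freedom at least 2.48). Coordinates and UTRs are from GENCODE M21. All 30 members are named, and from each list of other decay genes up to 2 of the largest rises and falls per comparison, while Lsm1 was named after its values were seen. Members and lists were chosen with earlier results of these data known. The checks of gene length, of genes within 2 Mb, of seed matches and of promoters were added after the data were seen.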

Additional observations from a re-analysis of the deposited data

Results flagged for a closer look

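For 8 of the 102 tested members and other listed genes of mRNA decay (7.84%, beside 6.93% of all genes, so a share near the background), the genotype difference with Tnrc6a differed from that with Cas9 by a test of the difference itself (edgeR quasi-likelihood test, 3 libraries per group). Among the members these were Dcp2 (0.29, higher with Tnrc6a than with Cas9) and Pabpc1 (0.25). Among regulators of deadenylation the difference was 0.90 for Zfp36, 0.49 for Zfp36l1 and 0.45 for Zfp36l2, which bind AU-rich elements and recruit CCR4-NOT, and 0.33 for Btg2. It was -0.20 for Casc3 and -0.46 for Gadd45b. The call of Casc3 was lost without Cas9 control replicate 3, Cas9 Trim71-/- replicate 2 or Tnrc6a Trim71-/- replicate 3 (adjusted p between 0.0521 and 0.0597), and that of Gadd45b without Cas9 Trim71-/- replicate 3 (adjusted p = 0.0553).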

How the results depend on the processing

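Of 72 calls on members, 59 held under every alternative apart from the 1.2-fold minimum, 13 were lost under at least 1 of those, and none of the values reversed. The minimum itself kept 30 of the 72, and 28 held under it and all the others. Of 78 values not called, 14 became calls under at least 1 alternative. The 1.2-fold minimum reduced the members called to 6 and 7 for the genotype with Cas9 and with Tnrc6a (beside 24.9% and 26.7% of all genes), to 8 and 8 for Tnrc6a in control and Trim71-/- cells, and to 1 for the difference of genotype effects. With each library left out in turn the counts were 11 to 13, 10 to 12, 23 to 26, 18 to 22 and 2 to 3. Other scaling factors moved the median of all genes by at most 0.042 (log2). Chromosome 8 medians over the 872 genes of at least 1 CPM were 0.473 and 0.494. Ratios of raw counts, which ignore length, were 8.65 for Cnot6 over Cnot6l, 1.29 for Cnot7 over Cnot8, 11.6 for Dcp1a over Dcp1b and 1.201 for Upf3a over Upf3b in the Cas9 control group. Over all genes of at least 5 CPM together, replicate numbers did not pair the libraries. Same-numbered libraries of 2 groups correlated at -0.23 to 0.14 (18 pairs), others at -0.21 to 0.22, and 2 of 12 libraries correlated best with their own number. Such correlations do not test a shared difference in part of the genes. In both Tnrc6a groups, genes of at least 15000 bases lay above the group mean in replicate 3 (0.09 and 0.04) and below it in replicates 1 and 2. With the replicate block the counts were 11, 13, 26, 19 and 2 members, and besides Lsm14a and Smg1 it changed the call of Smg6 with Cas9 (adjusted p = 0.0516). Depth limits Dcp1b and Cnot6l most, the least abundant members.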

Other observations

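The AU-rich element binding proteins Zfp36, Zfp36l1 and Zfp36l2, which carry CCR4-NOT to short-lived mRNAs, were all lower in Trim71-/- cells with Cas9. Zfp36 measured 3.94, 4.55 and 3.88 RPKM in Cas9 control and 2.29, 1.82 and 2.14 in Cas9 Trim71-/- libraries, a difference of -0.97 (SE 0.10, adjusted p = 2.32e-11 by the edgeR quasi-likelihood test). In the Tnrc6a groups it measured 6.73, 6.71 and 6.49 in control and 6.74, 6.07 and 6.13 in Trim71-/- libraries, and these groups overlapped. Zfp36l2 differed by -0.34 with Cas9 (SE 0.06, adjusted p = 1.47e-05) and gave 0.11 with Tnrc6a (SE 0.06, adjusted p = 0.112). Zfp36l1 measured 60.7, 64.9 and 59.6 in Cas9 control, 50.2, 50.9 and 46.9 in Cas9 Trim71-/-, 35.9, 37.3 and 38.8 in Tnrc6a control and 42.1, 42.6 and 41.0 in Tnrc6a Trim71-/- libraries. Its genotype groups were thus in opposite order with Cas9 (-0.32, SE 0.04, adjusted p = 2.72e-08) and with Tnrc6a (0.17, SE 0.04, adjusted p = 0.00144), as those of Dcp2 were. A pseudogene of Zfp36l1 on the X chromosome was also counted, so reads may be split between them.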
